A study of Mus musculus with 8 samples.

Results

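The replication-dependent histone genes were examined in 2 cell fractions sorted from mammary tumors of MMTV-Neu mice. The members were taken by symbol: each is a gene whose array row is annotated with exactly 1 symbol of the form Hist1h to Hist4h in the older naming, or H1f, H2ac, H2bc, H3c or H4c plus digits in the newer. The rule gave 30 members of 19938 genes, each measured by 1 row, with 8 of class H1, 4 of H2A, 9 of H2B, 3 of H3 and 6 of H4. RefSeq holds 67 protein-coding genes with such symbols, and a further 26 array rows are annotated with several histone symbols at once. Those shared rows lie outside the rule and are described separately. The symbols take in some genes that are not replication-dependent in the usual sense: H1f7 and H1f8 encode linker histones of male and female germ cells, and H1f10 encodes a replacement linker histone. H1f6, H2ac1 and H2bc1 encode the testis variants of H1, H2A and H2B. Without these genes 24 members remain.

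All samples were primary mammary tumors, below 1.0 cm across, of FvB mice with the MMTV-Neu transgene, in which the mouse mammary tumor virus promoter drives Neu, rat Erbb2, in the epithelium of the mammary gland. The transgene is common to both fractions, and the age of the mice is not given in the labels. The TIC group has 4 arrays of the fraction labelled as tumor-initiating cells, and the CD24- group has 4 arrays of the non-initiating fraction of the same tumors, separated by fluorescence-activated sorting. Which markers gated the TIC fraction is not stated in the labels. Tumors N251, N260 and N283 gave 1 pair of arrays each, while cells of N222 and N229 were mixed 1:1 before sorting, so 5 tumors gave 4 pairs and 1 pair is a pool. Tumor names are those of the sample titles, since the growth protocol writes N250 and N261 for N251 and N260. RNA was hybridized to Affymetrix Mouse Gene 1.0 ST arrays, whose probes lie along the whole transcript, and all values are log2 intensities.

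Replication-dependent histones package newly copied DNA. Their genes lie in clusters, lack introns and are transcribed in S phase under Npat, which cyclin E and Cdk2 activate at the histone locus bodies of the nucleus. Their messages end in a stem-loop instead of a poly(A) tail, are bound by Slbp and are degraded when replication stops. H2A, H2B, H3 and H4 form the nucleosome core and H1 binds the linker DNA. Each protein is encoded by many nearly identical genes, so an array probe often cannot tell one copy from another, and a level assigned to 1 member can hold signal of its close relatives.

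The medians of the 8 arrays lay between 7.03 and 7.18. Cd24a, which encodes the sorted antigen, read 12.26, 12.06, 12.50 and 12.47 in the TIC arrays of N251, N260, N283 and the pool and 10.53, 11.01, 12.12 and 11.20 in the CD24- arrays. Its transcript was thus detected in both fractions, was lower in the CD24- array of every tumor, and overlapped between the groups through N283. Of 10 pan-leukocyte markers 6 were called lower in TIC in limma's paired fit (threshold 0.05 for the Benjamini-Hochberg adjusted p). Of 10 macrophage markers 9 were called lower, where 1.09% of all genes were. Lower in all 4 tumors, called or not, were 9 pan-leukocyte and 10 macrophage markers, against 11.8% of genes. The mean level of the macrophage list ran from 6.31 to 6.64 over the TIC arrays and from 9.76 to 12.35 over the CD24- arrays. Luminal epithelial markers averaged 10.77 to 10.90 in TIC and 9.87 to 10.75 in CD24- arrays, and 0 of 8 passed the test. None of the 6 fibroblast, 6 endothelial and 5 basal epithelial markers passed it either. At an unadjusted p under 0.05, 2 luminal markers and 1 basal marker were higher, against 14.2% of genes. By the same threshold 3 fibroblast and 3 endothelial markers were lower, against 8.08% of genes. The part of the cell composition in the histone differences was not tested.

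An H1 gene, an H2A gene and a pair of H2B genes rose in the TIC fraction, and no member was called lower. With the tumor as a block, limma called 4 of 30 members higher in TIC at a Benjamini-Hochberg adjusted p under 0.05, or 13.3%, where 0.863% of all 19938 genes were called higher. They were H2bc3 (formerly Hist1h2bb), H2ac4 (Hist1h2ab), H2bc14 (Hist1h2bm) and H1f5 (Hist1h1b), with rises of 0.82 to 1.20 on the log2 scale. The count of members called lower was 0, against 1.09% of genes. With an unadjusted p under 0.05, 16 members (53.3%) were higher, against 14.2% of genes. By the same threshold 2 were lower, against 8.08% of genes. The median difference over the 30 members was 0.27, where the median over all genes was 0.04, and over the 24 members without the germ-line, testis and replacement genes it was 0.33. In bulk samples such as these, a different share of cells of one type and a different amount of RNA per cell cannot be told apart.

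The calls rest on the pairing and on which tumors are kept. Without the tumor as a replicate block, limma called 0 members and 10 of all 19938 genes (0.0502%) higher, with 6 members higher at an unadjusted p under 0.05, against 8.02% of genes. Without N260 it called 0 members and 0 genes in all, with 11 members higher by unadjusted p, against 7.66% of genes. Without N283 the calls were also 0 and 0, with 12 members higher by unadjusted p, against 10.1% of genes. Without N251 it called 7 members against 1.81% of genes, without the pool 2 against 0.371%, and with array weights 10 against 2.23%.

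The TIC array was the higher of its pair in all 4 tumors for 17 of 30 members (56.7%), against 23.2% of genes, and the lower in all 4 for H1f2 and H3c4, against 11.8% of genes. The remaining 11 members changed sign between tumors. Levels did not overlap between the groups for 3 members, each higher in TIC, H2bc14, H4c4 and H2ac8, where 5.19% of genes lay apart in this direction and 4.68% in the other. For 23 members the range over the 4 tumors exceeded the difference between fractions in both fractions. No such count was made over all genes, and a difference near 0, as in H1f7 (0.01) and H1f8 (-0.01), is easily exceeded.

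**Figure D1:**
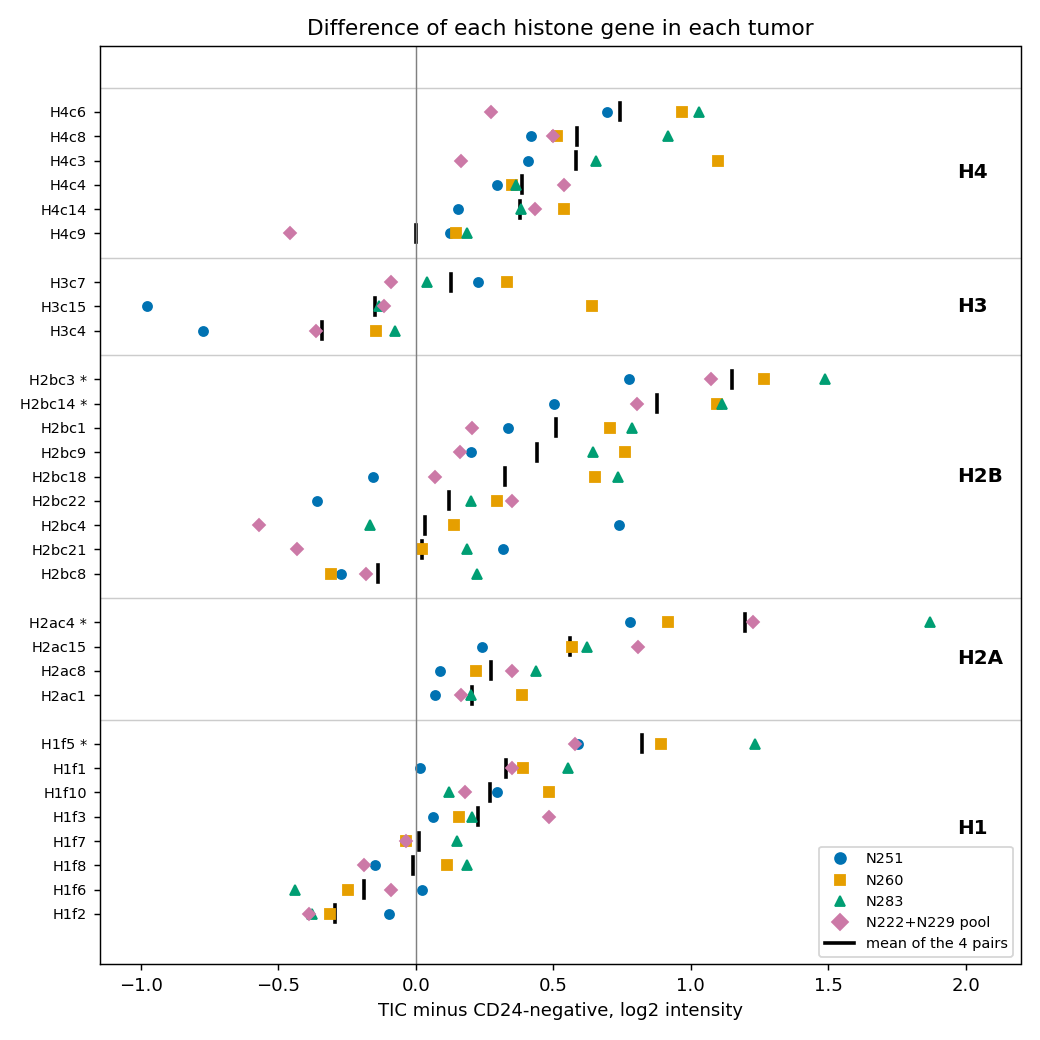
TIC minus CD24- log2 intensity (x axis) of each of the 30 histone genes (y axis, grouped by class), with a symbol for each of the 4 pairs, a bar at their mean and an asterisk at the 4 genes with an adjusted p under 0.05. The means ran from -0.34 for H3c4 to 1.20 for H2ac4, and the points of H2bc3, H2ac4, H2bc14 and H1f5 lie to the right of 0 in every tumor.

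Histone promoters are compact and carry class-specific elements, so the sequence just upstream of the start is shown for the 4 called genes and for 3 comparison genes of the same clusters: H1f2 and H2bc8, which did not rise, and H4c4, an H4 gene whose groups did not overlap. The 200 bases before the transcription start are from RefSeq, build GRCm38.p6, written 5′ to 3′ on the strand of the gene. Capitals mark every match to TATAAA on the gene strand and, on either strand, to CCAAT, to ATTTGCAT (the octamer bound by Pou2f1, known from H2B promoters), to AAACACA (an element of H1 promoters) and to GGTCCG (the core of an H4 promoter site).
H1f5, minus strand, chr13:21780626-21780825: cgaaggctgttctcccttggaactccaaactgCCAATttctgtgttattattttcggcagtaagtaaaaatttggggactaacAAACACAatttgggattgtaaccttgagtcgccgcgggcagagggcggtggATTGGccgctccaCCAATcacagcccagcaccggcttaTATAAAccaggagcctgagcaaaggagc
H1f2, plus strand, chr13:23738607-23738806: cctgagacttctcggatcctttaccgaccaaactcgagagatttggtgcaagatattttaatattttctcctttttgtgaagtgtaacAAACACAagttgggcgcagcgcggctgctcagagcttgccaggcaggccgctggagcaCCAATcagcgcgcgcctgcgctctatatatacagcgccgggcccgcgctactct
H2ac4, plus strand, chr13:23750888-23751087: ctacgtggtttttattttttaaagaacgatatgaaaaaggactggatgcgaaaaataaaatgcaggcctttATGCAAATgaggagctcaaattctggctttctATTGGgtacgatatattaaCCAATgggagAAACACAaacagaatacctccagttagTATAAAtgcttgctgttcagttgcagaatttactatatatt
H2bc3, plus strand, chr13:23746534-23746733: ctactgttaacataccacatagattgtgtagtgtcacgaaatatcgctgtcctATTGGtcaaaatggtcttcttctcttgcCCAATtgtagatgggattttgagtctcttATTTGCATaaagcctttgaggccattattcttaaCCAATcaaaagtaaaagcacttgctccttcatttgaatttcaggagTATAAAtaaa
H2bc14, plus strand, chr13:21721844-21722043: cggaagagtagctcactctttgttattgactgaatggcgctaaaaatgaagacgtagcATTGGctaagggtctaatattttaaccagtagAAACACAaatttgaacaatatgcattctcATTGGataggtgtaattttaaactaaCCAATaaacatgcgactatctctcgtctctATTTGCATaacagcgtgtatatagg
H2bc8, plus strand, chr13:23571200-23571399: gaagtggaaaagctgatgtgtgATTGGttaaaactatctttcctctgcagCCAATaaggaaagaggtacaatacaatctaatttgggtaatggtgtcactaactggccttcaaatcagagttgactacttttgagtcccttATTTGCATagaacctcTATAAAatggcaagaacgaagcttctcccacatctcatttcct
H4c4, plus strand, chr13:23581368-23581567: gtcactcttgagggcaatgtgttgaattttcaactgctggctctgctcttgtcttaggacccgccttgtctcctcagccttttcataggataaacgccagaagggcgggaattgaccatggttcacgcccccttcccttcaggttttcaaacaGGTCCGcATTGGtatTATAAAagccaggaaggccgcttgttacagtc

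A window of 300 bases, from 250 before to 50 after the start, was held by the RefSeq table for 26 of the 30 members, of which 21 lie on chromosome 13. H2bc21, H2bc4, H3c7 and H4c14 had none. The octamer ATTTGCAT occurred in 8 of the 26 windows, 5 of 7 H2B and 3 of 4 H2A, in 0 of the H1, H3 and H4 windows, and in 1.74% of the 32851 windows of all genes. H2bc3 has it 90 bases before the start and H2bc14 25 bases before. H2bc8, which did not rise, has it 59 bases before, so its presence did not separate the called from the other H2B genes. The octamer of H2ac4 is the reverse complement, ATGCAAAT, 129 bases before the start. All distances are to the start annotated in RefSeq, before which TATAAA stands 10 bases in H2bc3 and 43 in H2bc8. Whether the annotated starts are equivalent between genes was not tested.

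AAACACA was found in 8 windows, 4 of them of the 8 H1 genes, against 7.18% of all windows. It stood 117 bases before the start of H1f5 and 112 before that of H1f2, the H1 genes that differed most in opposite directions. GGTCCG was found in 7 windows, including 5 of 5 H4 windows, against 8.25% of all. CCAAT was present in 21 of 26 member windows and 37.4% of all windows, and TATAAA in 13 and 8.32%. In H4c4 the match to the H4 site begins 47 bases before the start, the reversed CCAAT match 40 and the TATA match 32. H2ac1 and H2bc1 share 220 bases of their windows on opposite strands, and H2ac8 and H2bc8 share 279, so the motifs of these partners are counted for each of the divergent genes.

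Among the linker histones, H1f5 was the member called. Its level was 9.37, 9.94, 10.03 and 8.36 in the TIC arrays of N251, N260, N283 and the pool and 8.78, 9.05, 8.80 and 7.78 in the CD24- arrays. TIC was higher in each tumor, but both arrays of the pool were low and the groups overlapped. H1f5, the H1.5 subtype of dividing cells, rose by 0.82 ± 0.13 (SE, n = 4 pairs), 1.77-fold, with limma's adjusted p = 0.0471 in the blocked fit. The call was lost without the block, at an adjusted p of 0.385, and with the tumor fitted as random, at 0.0990.

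H1f2, the H1.2 subtype, went the other way. It read 10.12, 9.89, 10.02 and 10.48 in TIC and 10.22, 10.20, 10.40 and 10.87 in CD24- arrays. TIC was the lower array of every pair, and the pool was the highest of its group in both fractions. The difference of -0.29 ± 0.08 did not pass the test (limma, adjusted p = 0.132). H1f1, the H1.1 subtype, was higher in all 4 tumors by 0.02 to 0.55, with a mean difference of 0.33 and an adjusted p of 0.162 in limma.

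H1f3, the H1.3 subtype, was higher in TIC in all 4 tumors by 0.06 to 0.49 and had its highest level in the pool, at 7.17 in TIC and 6.69 in CD24- arrays. H1f10 was higher in all 4 tumors by 0.12 to 0.49, with a mean difference of 0.27 ± 0.09. The testis linker histone H1f6 differed by -0.19 ± 0.10 and was lower in 3 of 4 tumors. The germ-line H1f7 and H1f8 differed by 0.01 and -0.01, with mixed signs. The median over the 8 H1 members was 0.12, and it was 0.28 without H1f6, H1f7, H1f8 and H1f10. By unadjusted p under 0.05, 3 of the 8 were higher, against 14.2% of genes, and 1 lower, against 8.08%.

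All 4 H2A members were higher in TIC in all 4 tumors, against 23.2% of genes, and their median difference was 0.42. H2ac4, an H2A gene of the large cluster, read 6.18, 7.10, 7.01 and 5.81 in TIC and 5.40, 6.18, 5.14 and 4.58 in CD24- arrays. The difference was largest in N283, at 1.87. The CD24- array of N260 read 6.18, the same as the TIC array of N251 and above the TIC array of the pool, 5.81, so the groups overlapped. The levels were low. The CD24- values of N251, N283 and the pool and the TIC value of the pool were below 5.85, the mean lower quartile of all rows. H2ac4 rose by 1.20 ± 0.19 (SE, n = 4 pairs), 2.30-fold, with limma's adjusted p = 0.0459. It was 0.213 without the block and 0.0375 with a random block.

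H2ac15 (formerly Hist1h2ak), another H2A gene, read 12.14, 12.57, 12.43 and 11.54 in TIC and 11.90, 12.00, 11.80 and 10.73 in CD24- arrays. Its pool arrays were the lowest of each fraction, and the difference was 0.56 ± 0.11 with limma's adjusted p = 0.0700. H2ac8 (formerly Hist1h2ae) read 3.72 to 4.15 in TIC and 3.37 to 3.71 in CD24- arrays. These groups did not overlap, but every value was below 5.85, the mean lower quartile of all rows of an array, and the difference of 0.27 ± 0.09 did not pass the test (limma, adjusted p = 0.157). H2ac1, the testis H2A, was higher by 0.07 to 0.39, with a mean of 0.21 ± 0.08 and an adjusted p of 0.219 in limma.

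The H2B class held 2 of the 4 called genes and also members that hardly differed. H2bc3 read 8.98, 9.89, 9.86 and 8.04 in TIC and 8.20, 8.62, 8.38 and 6.97 in CD24- arrays. N260 and N283 were high in TIC, the pool was the lowest in each fraction, and the groups overlapped only because the TIC array of the pool lay below the CD24- arrays of the other tumors. H2bc3 rose by 1.15 ± 0.13 (SE, n = 4 pairs), 2.22-fold, with limma's adjusted p = 0.0253. Without the block the adjusted p was 0.321 and with a random block 0.0639, so the call was lost in both.

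H2bc14 read 10.38, 10.97, 10.96 and 10.15 in TIC and 9.88, 9.88, 9.85 and 9.35 in CD24- arrays. Every TIC array was above every CD24- array. H2bc14 rose by 0.88 ± 0.12 (SE, n = 4 pairs), 1.84-fold, with limma's adjusted p = 0.0402. It was 0.120 without the block and 0.0169 with a random block, in which the tumor correlation is estimated.

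H2bc1, the testis H2B, and H2bc9 (formerly Hist1h2bh) were higher in TIC in all 4 tumors. H2bc1 differed by 0.51 ± 0.12, with limma's adjusted p = 0.102. H2bc9 differed by 0.44 ± 0.13, with 0.141. H2bc18 (formerly Hist2h2bb) was higher by 0.65 and 0.74 in N260 and N283, by 0.07 in the pool and by -0.16 in N251.

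The other H2B genes showed no common direction. H2bc4 (formerly Hist1h2bc), known to give polyadenylated messages besides the stem-loop form, read 11.11, 10.99, 10.85 and 11.44 in TIC and 10.37, 10.85, 11.02 and 12.01 in CD24- arrays. TIC was higher in N251 and N260 and lower in N283 and the pool, so that differences from 0.74 to -0.57 averaged 0.03 ± 0.21. H2bc21 (formerly Hist2h2be), for which polyadenylated messages are also known, ranged from 0.32 in N251 to -0.43 in the pool and averaged 0.02. H2bc22 (formerly Hist1h2bp) differed by 0.12 ± 0.14 and was lower in TIC in N251 alone. H2bc8 (formerly Hist1h2bg), whose divergent partner is H2ac8, differed by -0.14 ± 0.11 and was higher in TIC in N283 alone.

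**Figure D2:**
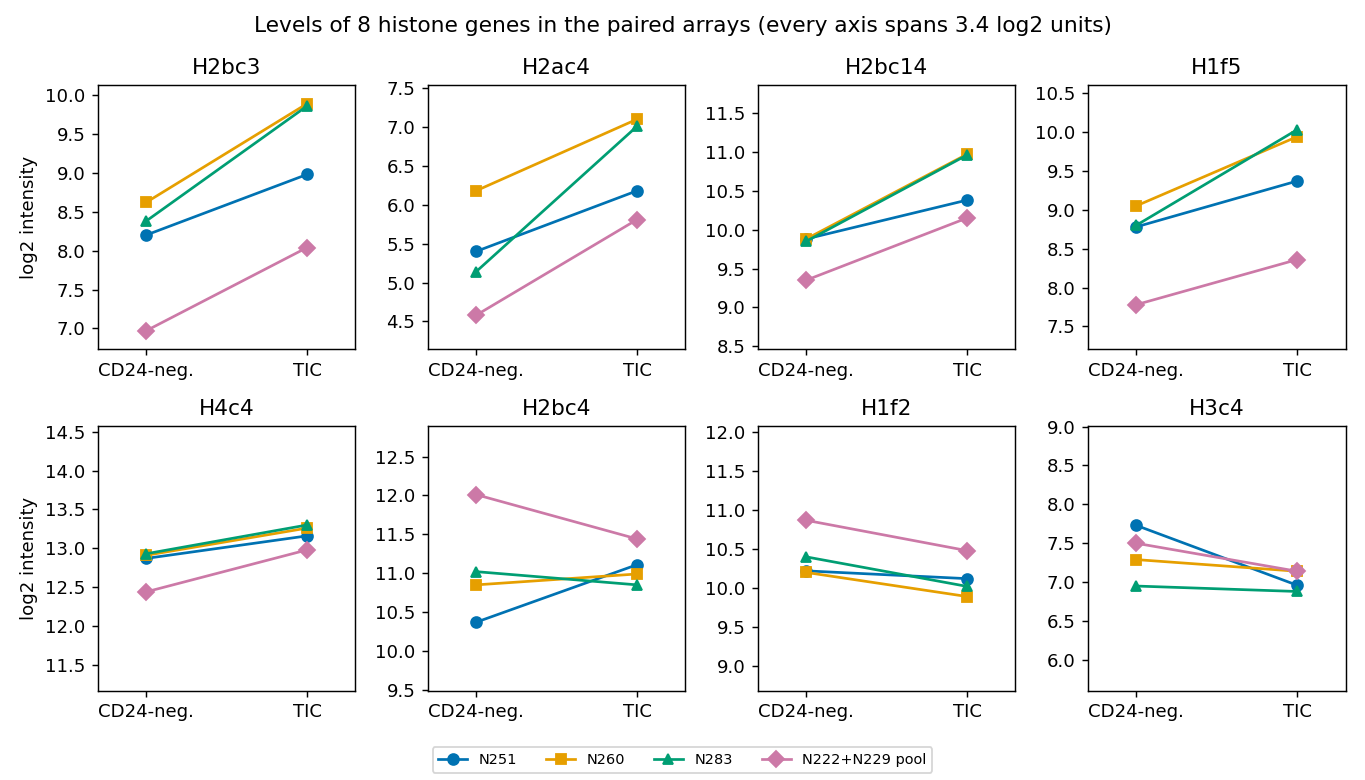
Log2 intensity (y axis, every panel spanning 3.4 units) of 8 histone genes in the CD24- and TIC arrays (x axis), with a line joining the fractions of each tumor or pool. Lines slope up in every tumor for H2bc3, H2ac4, H2bc14, H1f5 and H4c4, cross for H2bc4, and slope down in every tumor for H1f2 and H3c4.

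The H4 class had no called member. At an unadjusted p under 0.05, 5 of 6 were higher, against 14.2% of genes. The same number were higher in all 4 tumors, against 23.2% of genes. H4c4 (formerly Hist1h4d) read 13.16, 13.26, 13.30 and 12.98 in TIC and 12.87, 12.91, 12.93 and 12.44 in CD24- arrays. Every TIC array was above every CD24- array, by a mean of 0.39 ± 0.08. Limma's adjusted p was 0.0732 in the blocked fit and 0.0482 under the random block, which called H4c4, H2ac4 and H2bc14 and 2.16% of all genes higher.

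H4c6 (formerly Hist1h4f) read 9.89, 10.44, 10.51 and 8.70 in TIC and 9.20, 9.47, 9.48 and 8.42 in CD24- arrays. The pool was far below the single tumors in both fractions and had the smallest difference, 0.27, where N283 had 1.03. The mean of 0.74 ± 0.14 had an adjusted p of 0.0686 in limma. H4c8 (formerly Hist1h4h) differed by 0.59 ± 0.10, with an adjusted p of 0.0588 in limma, and was higher by at least 0.42 in each tumor.

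H4c3 (formerly Hist1h4c) differed by 0.58 ± 0.16 and ranged from 0.16 in the pool to 1.10 in N260. H4c14 (formerly Hist2h4) differed by 0.38 ± 0.09 and was higher in each tumor. H4c9 (formerly Hist1h4i) was higher by 0.12 to 0.19 in the single tumors and by -0.46 in the pool, for a mean of 0.00 ± 0.13. The class median was 0.48.

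The 3 H3 members did not show this direction. H3c4 (formerly Hist1h3d) read 6.96, 7.14, 6.88 and 7.14 in TIC and 7.73, 7.29, 6.95 and 7.50 in CD24- arrays. TIC was the lower of each pair, most of all in N251, and the groups overlapped. The difference of -0.34 ± 0.13 had an adjusted p of 0.211 in limma. H3c7 (formerly Hist1h3f) and H3c15 lay below the lower quartile of the rows in their mean level, as H2ac8 and H1f8 did. H3c7 differed by 0.13 ± 0.10 with 1 tumor lower, and H3c15 by -0.15 ± 0.25, from -0.98 in N251 to 0.64 in N260. The median of the 3 H3 members, -0.15, was 0.09 without N251 and -0.40 without N260, so its sign rests on 1 pair of arrays.

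Most H3 genes are read only by rows annotated with many H3 symbols, and these rows were higher in TIC. Of the 26 rows with several histone symbols, 10 hold H3 genes, 7 H2B, 6 H4, 2 H2A, and 1 both H1f4 and H2bc6. One H3 row, annotated with 12 symbols, read 12.97, 13.25, 13.18 and 12.54 in TIC and 12.57, 12.65, 12.33 and 11.43 in CD24- arrays. TIC was higher in each tumor, and the groups overlapped because the pool was low in both fractions. The 10 H3 rows differed by 0.71 to 0.77, with a median of 0.73, and correlated at 0.998 or more with each other over the 8 arrays, so they are close to repeated readings of one quantity. Of the 26 shared rows 24 hold distinct values, and the H2B rows correlated at 0.988 or more with each other and the H2A rows at 0.995, so the rows of these classes are not separate readings either.

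The median differences of the shared rows were 0.49 for H2B, 0.48 for H2A and 0.43 for H4. In all, 25 of the 26 shared rows were higher in TIC in all 4 tumors, against 19.1% of all 35556 rows, the exception being the H1f4 and H2bc6 row, at 0.07. These rows were tested only in a fit over all 35556 rows, in which limma called 0 rows higher in total, the lowest adjusted p of a shared row being 0.110. At an unadjusted p under 0.05, 25 of the 26 were higher, against 10.7% of all rows. With the shared rows added as separate entries, the median of the H3 class moved from -0.15 to 0.73 and that of all members from 0.27 to 0.45. The 10 H3 rows are nearly repeated readings and outnumber the 3 H3 members, so they set the new H3 median.

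Tumors differed in the size of the shift. For N251, N260, N283 and the pool, the median differences over the 30 members were 0.18, 0.39, 0.29 and 0.17, and those over all genes 0.07, 0.08, 0.01 and 0.01. N283 gave the largest difference for 15 members and N251 the smallest for 16. On the shared H3 rows the order was another one: the pool had the largest median difference, 1.14, and N251 the smallest, 0.37. The macrophage markers had their largest difference in N251, with a median of -6.20, and their smallest in the pool, -3.43. The medians of N251 and the pool were 0.18 and 0.17 over the 30 members, but the classes varied. They were 0.02 and 0.07 for H1, 0.165 and 0.58 for H2A, and 0.32 and 0.16 for H2B. For H3 they were -0.775 and -0.12, and for H4 0.35 and 0.35. Whether the histone and marker differences are linked was not tested.

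**Figure D3:**
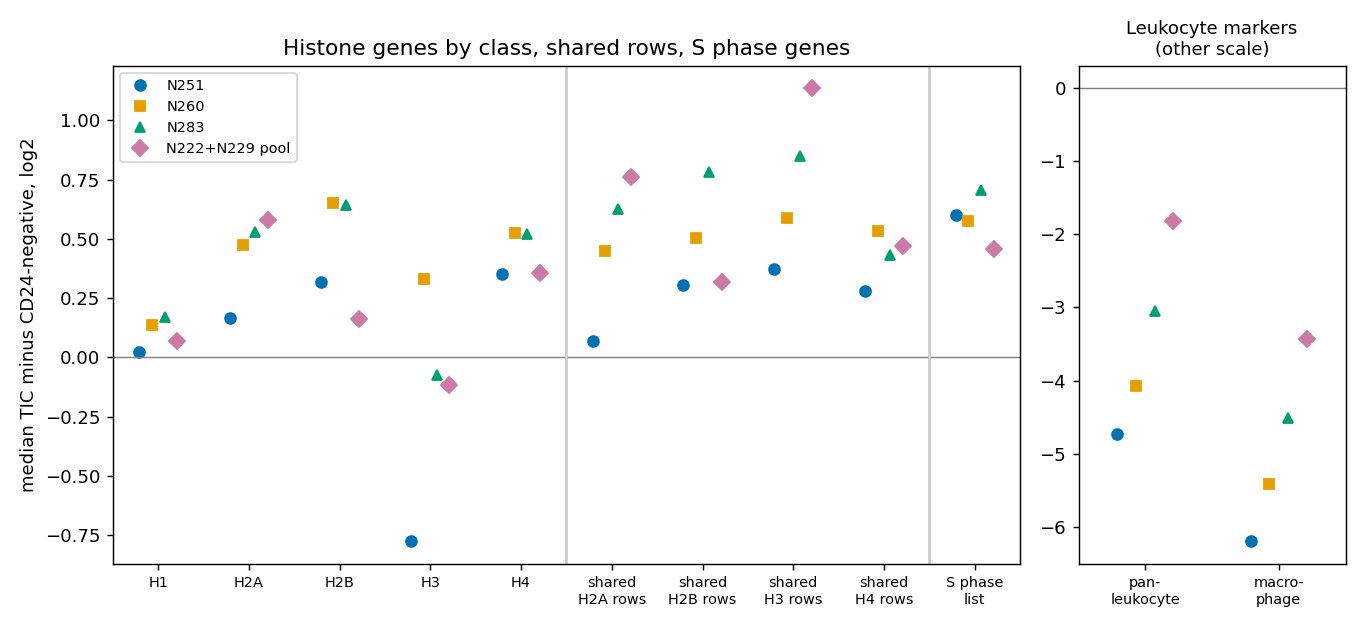
Median TIC minus CD24- log2 difference (y axis) in each of the 4 pairs for the members of each histone class, the rows shared by several genes of a class, the S phase list and, on a separate scale at right, the leukocyte and macrophage markers. The shared H3 rows lie between 0.37 and 1.14 and the macrophage markers between -6.20 and -3.43.

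The pool of N222 and N229 stood apart in its histone levels in both fractions. For 18 of the 30 members (60%) the pool was the lowest array of the TIC group and of the CD24- group, against 21.1% of genes. For 4 members (13.3%), H1f2, H1f3, H2bc4 and H2bc8, it was the highest in both, against 19.9% of genes. For H2bc3 the pool minus the mean of the single tumors was -1.43 in CD24- and -1.535 in TIC arrays, and for H2bc8 it was 0.99 and 0.93. The members low in the pool were those that tended to be higher in TIC: the 18 had a median TIC minus CD24- difference of 0.475. The 4 had -0.05, and the other 8 members had -0.005, so these groups were alike. The mean level of the S phase list, described below, was also lowest in the pool in both fractions. In TIC arrays it was 8.33, against 8.68 to 9.09 in the single tumors. In CD24- arrays it was 7.84, against 8.08 to 8.51. The pool is 1 pair of arrays, mixed from 2 tumors, so no spread can be given for it.

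**Figure D4:**
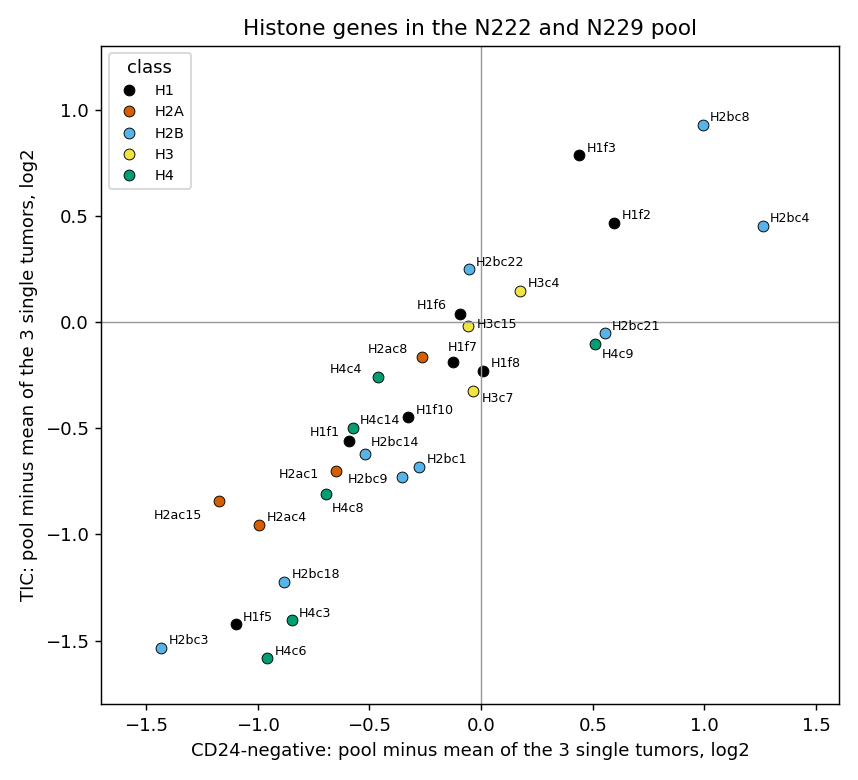
Log2 level of the N222 and N229 pool minus the mean of the 3 single tumors, in the CD24- arrays (x axis) and the TIC arrays (y axis), for the 30 histone genes coloured by class. H2bc3, at -1.43 and -1.535, marks the lower left, and H2bc8, at 0.99 and 0.93, the upper right.

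Most genes that transcribe and process histone messages did not pass the test. Of 20 genes of histone mRNA processing, 0 were called (limma) and 3 (15%) were higher by unadjusted p, against 14.2% of all genes, with a median difference of 0.11. Slbp, which binds the stem-loop, read 8.35 ± 0.28 in TIC and 8.36 ± 0.39 in CD24- arrays (SD, n = 4), a difference of -0.01 ± 0.12. Lsm11, a subunit of the U7 snRNP that guides cleavage of the message, was higher in each tumor by 0.05 to 0.35, with an adjusted p of 0.178 in limma.

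Of 12 measured genes of histone transcription, out of 13 listed, 1 (8.33%) was called higher, against 0.863% of genes, and 0 lower, with a median of 0.15. By unadjusted p 5 (41.7%) were higher, against 14.2% of genes, and 1 lower, against 8.08% of genes. The called gene was Ccne2, a cyclin E that activates Cdk2 at the start of S phase, which rose by 0.87 ± 0.12 with limma's adjusted p = 0.0356 (0.273 without the block and 0.0505 with a random block). Npat, the coactivator of histone genes, differed by 0.18 ± 0.08 with an adjusted p of 0.265, and Casp8ap2, a further protein of the histone locus body, by -0.02 ± 0.10 with 0.944, both from limma.

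Of 9 measured replacement histones, out of 10 listed, 1 (11.1%) was called higher, against 0.863% of genes. By unadjusted p 5 (55.6%) were higher, against 14.2% of genes, and 0 lower. The called gene Macroh2a2, a macroH2A variant, rose by 0.54 ± 0.08 with limma's adjusted p = 0.0456 (0.283 without the block and 0.0550 with a random block). The list's median was 0.19, and H1f10 is counted both here and among the H1 members. Of 17 measured histone chaperones, out of 19 listed, 1 (5.88%) was called higher, against 0.863% of genes. Chaf1b, a subunit of the CAF-1 complex that deposits H3 and H4 on new DNA, rose by 1.01 ± 0.07 and by 0.97 to 1.12 in the 4 tumors, with limma's adjusted p = 0.0189 (0.140 without the block). The chaperone list had a median of 0.21, and 7 (41.2%) were higher by unadjusted p, against 14.2% of genes, and 0 lower.

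The S phase list held the most calls. Of 28 measured genes, out of 29 listed, 12 (42.9%) were called higher and 0 lower in limma's blocked fit, against 0.863% of genes called higher, with a median of 0.55 and medians of 0.60, 0.57, 0.71 and 0.46 in N251, N260, N283 and the pool. The 6 called genes with the smallest p were Rrm2, a subunit of ribonucleotide reductase, Dtl, a substrate receptor of the replication-linked ubiquitin ligase, Mcm7 and Mcm6, subunits of the replicative helicase, Uhrf1, which maintains DNA methylation, and Tk1, a thymidine kinase. Rrm2 rose by 1.15 ± 0.09 and in each tumor by 0.93 to 1.32. Dtl rose by 0.96, Uhrf1 by 0.95, Mcm6 by 0.89, Mcm7 by 0.76 and Tk1 by 0.61. With a random block Mcm6 and Tk1 lost their calls, at limma's adjusted p = 0.0559 and 0.0566. The order of the tumors by median was not the same as for the histone members. N260 had the highest histone median, 0.39, beside an S phase median of 0.57, and N283 had 0.29 beside 0.71. The pool had the lowest of both, 0.17 and 0.46. N251 had a low histone median, 0.18, beside an S phase median of 0.60. The part of the cell cycle in the histone differences was not tested. Without the tumor block, 0 of the 85 genes of these lists were called higher.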

How the data were processed

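RNA of 8 sorted samples was measured on 1-colour arrays. The authors deposited log2 intensities. RMA and Partek are named per the submitters' processing notes, but versions, settings and genome build were not given in these sources. Of 35556 rows, those annotated with exactly 1 symbol were kept, and the row with the highest mean stood for a gene, which left 19938 genes. Every column was used, and the highest correlation between arrays was 0.991, so no array was a copy.

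The TIC minus CD24- difference of each gene was estimated in limma 3.58.1 (R 4.3.3; lmFit and eBayes) over the 8 arrays with a fixed tumor block and no filter. A call needed a p below 0.05 after Benjamini-Hochberg adjustment over all genes. The labels pair the fractions by tumor, and the arrays of a pair deviated together from the means of their groups (correlations across genes 0.322, 0.435, 0.300 and 0.557). Alternatives were no block or a random block, array weights, a trended robust prior, only genes at or above the median level, 3 scalings, the mean of a gene's rows, all rows, stricter thresholds, other sets of members and each tumor left out. The precision is limited by the number of arrays.

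The members, the lists and the rule for named genes were chosen with earlier results of these data known. The rule takes, in each class, up to 4 called members with the largest rise and up to 4 with the largest fall, filled to 3 by the smallest p, the member with the highest mean level, the testis members, Slbp, Npat and Casp8ap2, and in each list up to 6 called genes by smallest p or otherwise the smallest p alone. The other members are given to account for all 30, and Cd24a was added after its values were seen. Promoter windows are from RefSeq, GRCm38.p6, matched by gene identifier.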

Additional observations from a re-analysis of the deposited data

Results flagged for a closer look

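In groups of 4 arrays, 16 of 130 groups checked held an array whose gap to its nearest neighbour exceeded Dixon's critical share of the group's range, where chance gives about 6.5. In the CD24- arrays the pool of N222 and N229 was the one that stood apart for 9 of them. It was low for H2ac15 (10.73, others 11.8 to 12.0), H2bc14 (9.35, others 9.85 to 9.88), H4c8 (5.92, others 6.56 to 6.69), H4c4 (12.44, others 12.87 to 12.93) and H2ac1 (7.34, others 7.95 to 8.05), and for the mean of the shared H4 rows (11.15, others 11.63 to 11.71). It was high for H1f3 (6.69, others 6.20 to 6.27), H4c9 (7.48, others 6.96 to 6.99) and the row shared by H1f4 and H2bc6 (9.01, others 8.07 to 8.16).

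In the TIC arrays the pool was high for H1f3, at 7.17 against 6.34 to 6.42. N283 was high for H2ac8, at 4.15 against 3.72 to 3.77, and for H2bc21, at 6.53 against 6.29 to 6.33. N251 was low for H2bc22, at 5.65 against 6.24 to 6.30, and high in the mean of the fibroblast markers, at 6.94 against 6.70 to 6.73. The CD24- array of N260 was high in the mean of the histone transcription list, at 8.56 against 8.29 to 8.34, and of the chaperone list, at 8.91 against 8.75 to 8.78.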

How the results depend on the processing

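The number of members called higher, 4 with the replicate block, was 0 without it and 0 in the unpaired fits that also left out a tumor, a choice made after seeing the data. It was 1 among the 15 members at or above the median level (0.632% of the genes tested there), 2 with a trended robust prior (0.813%), 10 with array weights (2.23%), 1 after quantile normalization (0.652%), 1 after cyclic loess (0.421%), where 0.863% of genes were called in the reported fit, 0 with all rows tested, 0 at an adjusted p under 0.01 and 2 with a 2-fold minimum. Leaving out a tumor gave 0 to 7. The share of all genes called is not given for the stricter p or the 2-fold minimum, here or for the pathway genes below. H2bc3 was the member called after both normalizations and with the filter, while the random block called H2ac4, H2bc14 and H4c4. The 15 pathway genes called higher became 0 without the block, 28 with array weights, 0 with all rows, 0 at the stricter p, 2 with a 2-fold minimum and 0 to 22 with a tumor left out, and the unpaired fits without a tumor gave 0. Leaving out N260 or N283 gave 0 calls among all genes. Counts of members called lower stayed at 0 in every setting run.

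The median difference of all members moved to 0.378 for members at or above the median level and 0.451 with shared rows added. That of H1 moved to 0.227 without the testis members, 0.277 also without H1f7, H1f8 and H1f10 (chosen after seeing the data) and 0.298 at or above the median level, and that of H3 to 0.729 with shared rows. Both medians with shared rows count nearly repeated readings as separate entries. The scalings moved the median of all genes to between -0.002 and 0.071. The causes were not tested, except that leaving out arrays or testing more rows changes the numbers compared.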
